A study of Homo sapiens with 8 samples.

Results

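Of the 10 genes for the later steps of glycolysis and for lactate dehydrogenase, 6 could be measured in SQ20B cells. Of these, 5 had a higher FPKM in hypoxia than in normoxia, against 43.6% of all genes with the values as deposited. The 5 include ENO3, which was near the 0.5 FPKM limit used below, with 0.486 FPKM in normoxia and 0.679 FPKM in hypoxia. ENO2, the enolase otherwise known from neurons, had the largest relative difference, with 0.677 FPKM in normoxia and 8.04 FPKM in hypoxia. PGAM1 and PKM, which were far more abundant, were higher by 1.58-fold and 1.19-fold. LDHB was the most abundant of the 6 genes and the only lower one, with 1039 FPKM in normoxia and 768 FPKM in hypoxia. The members were chosen by name as enzymes of these steps, and their RefSeq transcripts were looked up in the table of expression values. TPI1, PGAM1, ENO2, ENO3, PKM and LDHB were found with 11 transcripts in all, out of 24812 listed transcripts and 14528 named genes. Listed were only 1 of 3 RefSeq transcripts for TPI1 and 1 of 2 for PGAM1. For ENO3 it was 2 of 5, for PKM 4 of 9 and for LDHB 2 of 6. The levels given are those of the listed transcripts. GAPDH, PGK1, ENO1 and LDHA were not analysed here, so nothing is said of their levels.

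SQ20B is an established line from a human head and neck squamous cell carcinoma. Polyadenylated RNA was sequenced from 4 samples in normoxia and from 4 samples kept in 0.5% O2 for 16 h, all grown in the same glucose-supplemented medium and with no genetic change named in the labels. The table holds 1 FPKM value per transcript and condition over the 4 samples of that condition. FPKM scales the fragments of a transcript to its length and to the size of the library, so that levels can be compared between genes. No spread between the samples is known from such values. Every difference below is therefore a description without a test, and whether it exceeds the variation between samples was not tested. The study's methods give a sequencing target and an average depth over the samples, but the depth of each library and the counts behind each value were not analysed here. Bulk RNA cannot tell a change in each cell from a change in the number of cells that express a gene.

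Glycolysis splits glucose into a pair of three-carbon units, and the enzymes described here carry these units to pyruvate and lactate. These later steps yield its ATP and NADH, and lactate dehydrogenase returns the NADH to NAD+ when pyruvate is reduced to lactate. Genes of glycolysis are textbook targets of the hypoxia-inducible factors, and many carcinomas run the pathway at a high rate. Several steps have more than 1 gene, such as the enolases ENO1, ENO2 and ENO3 and the dehydrogenase subunits LDHA and LDHB.

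Changes are given as log2 of hypoxia over normoxia after adding 0.1 FPKM to each value, which understates the changes of weakly expressed genes. The FPKM values of a gene's listed transcripts were summed. With a mean of at least 0.5 FPKM required, 12106 named genes remained, with a median log2 change of -0.07, and all 6 measured members were among them. ENO3 passed this limit only through its hypoxia value, 0.679 FPKM, against 0.486 FPKM in normoxia. A change of at least 2-fold upwards was reached by 2 of the 6, ENO2 and TPI1, where 3.21% of all genes reached it. TPI1 counts here by NM_001258026 alone, 1 of its 3 RefSeq transcripts, at a low level. No measured member was at least 2-fold lower, where 2.62% of all genes were. With 1.5-fold as the limit, PGAM1 joined the higher genes, against 9.95% of all genes, and none was lower, against 11.2%. The median log2 change of the 6 members was 0.54.

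**Figure D1:**
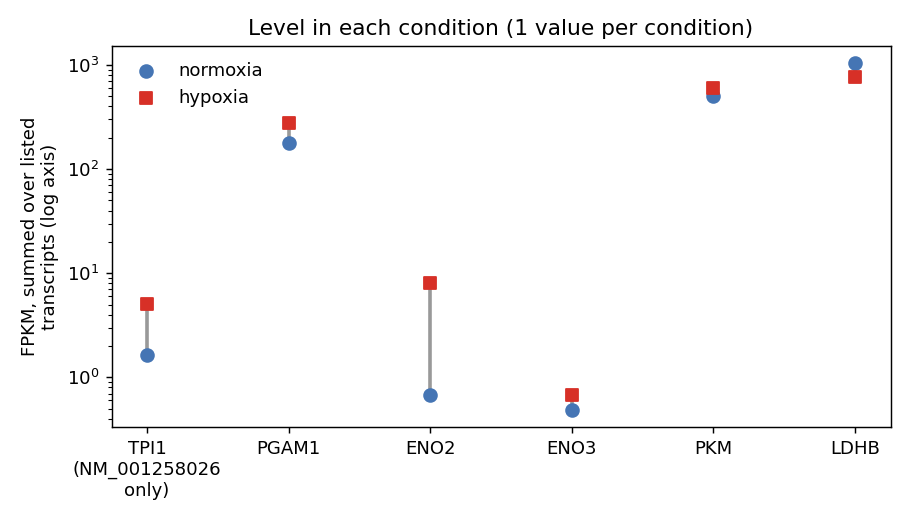
FPKM summed over the listed transcripts (y axis, log scale) of the 6 measured genes (x axis) in normoxia (blue circles) and hypoxia (red squares), 1 value per condition without an error. The red squares lie above the blue circles in every gene but LDHB, and the distance is widest for ENO2, from 0.677 to 8.04 FPKM.

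The enolases convert 2-phosphoglycerate into phosphoenolpyruvate. ENO2 (NM_001975) lies on chromosome 12 of hg19, from 7023614 to 7032859. Its log2 change was 3.39, or 10.5-fold with 0.1 FPKM added and 11.9-fold without. It held rank 13 of 12106 genes in order of change, but rank 7987 in order of level. ENO2 was thus a weakly expressed gene with a large relative change, and its log2 change was 2.43 when 1 FPKM was added in place of 0.1. In hypoxia the summed PKM level was still 74.4 times that of ENO2.

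ENO3, the enolase of muscle, was close to the lower limit of the analysis. Its 2 listed transcripts on chromosome 17 (4854384 to 4860426) summed to 0.486 FPKM in normoxia and 0.679 FPKM in hypoxia, a log2 change of 0.41. NM_053013 was listed at 0.294 FPKM in normoxia and 0.522 FPKM in hypoxia. NM_001976 was listed at 0.192 and 0.157 FPKM. The transcripts differed in direction, also under equal sums and quantile normalization, and the share of NM_053013 was 60.5% in normoxia and 76.9% in hypoxia, but neither reached a mean of 0.5 FPKM. Between ENO2 and ENO3 alone, ENO2 held 58.2% of the FPKM in normoxia and 92.2% in hypoxia. These shares leave out ENO1, the enolase of most tissues, and are not shares of all enolase RNA.

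TPI1 encodes triosephosphate isomerase, which interconverts the products of aldolase. Of its 3 RefSeq transcripts only NM_001258026 was measured, at 1.65 FPKM in normoxia and 5.12 FPKM in hypoxia. This is a log2 change of 1.57 and rank 134 in order of change. The other RefSeq transcripts of TPI1 were not analysed here, and the level given for NM_001258026 is not the level of the gene. Its deposited locus on chromosome 12 (6976584 to 6982521) is shared with SPSB2, whose listed transcript had 0.501 FPKM in normoxia and 0.432 FPKM in hypoxia.

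The promoters of ENO2 and TPI1, the genes past the 2-fold limit, are shown because hypoxia-inducible factors bind a short core, ACGTG or GCGTG. Promoter windows of 300 bases, from 250 before to 50 after a gene's start, came from RefSeq (GRCh38.p14, a different build from the table). The core was searched on both strands, so that a palindromic CACGTG counts on each. In each line below, capitals mark the core, and the strand is that of the printed letters.
ENO2, 118 bases before the start, chr12:6914452-6914476, plus strand: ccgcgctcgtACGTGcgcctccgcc
TPI1, 68 bases before the start, chr12:6868027-6868051, plus strand: aggctgggccGCGTGggcttcccgc
TPI1, 17 bases before the start, chr12:6868078-6868102, minus strand: gtctggggctACGTGcggcggcgca
The core occurred once in the ENO2 window. Of the 2 TPI1 windows, the downstream one held the pair printed here and the upstream one held none. PGAM1, 1.58-fold higher in hypoxia, had no core in its window, and LDHB, which was lower, had 1. Among all members, 10 of 13 windows held the core, against 48.4% of all 35116 RefSeq windows. This count includes ENO1, GAPDH, PGK1 and LDHA, whose windows all held the core but whose RNA was not analysed here. Among the measured members, PGAM1 and 1 window each of ENO3 and TPI1 held none. Which TPI1 start NM_001258026 uses is not given in the table, and a match of letters is no evidence of binding in these cells.

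PGAM1 encodes phosphoglycerate mutase, which moves the phosphate of 3-phosphoglycerate. NM_002629 on chromosome 10 (99186027 to 99193198) had 177 FPKM in normoxia and 280 FPKM in hypoxia, a log2 change of 0.66. The other RefSeq transcript of PGAM1 was not analysed here. PGAM1 stood at rank 327 of 12106 genes by level and at rank 985 by change. It has a near-identical retrocopy, PGAM4 on the X chromosome, listed at 0.730 FPKM in normoxia and 1.34 FPKM in hypoxia. How the fragments were divided between these copies is uncertain, and the FPKM ratio of PGAM1 to PGAM4 rests on that division. It was 243 in normoxia and 209 in hypoxia.

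PKM encodes the muscle-type pyruvate kinase, which makes pyruvate and ATP from phosphoenolpyruvate. The gene lies on chromosome 15 (72491370 to 72523727), and its 4 listed transcripts summed to 503 FPKM in normoxia and 598 FPKM in hypoxia. The log2 change was 0.25, at rank 2984 of 12106 genes, and 75.4% of genes had a lower change. It was 0.48 with the columns scaled to equal sums and 0.52 after quantile normalization. PKM was among the most abundant genes, at rank 112 by level.

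Nearly all of the PKM signal came from a pair of transcripts, and these differed from each other. NM_001206799 had 298 FPKM in normoxia and 390 FPKM in hypoxia, a log2 change of 0.39. NM_002654 had 204 and 208 FPKM, a log2 change of 0.03. These changes also depended on the scaling, with 0.61 for NM_001206799 and 0.25 for NM_002654 under equal column sums, and 0.66 and 0.31 after quantile normalization. With the columns as deposited, the summed difference was mostly that of NM_001206799. Its share of the listed PKM signal was 59.4% in normoxia and 65.2% in hypoxia. The share of NM_002654 was 40.5% in normoxia and 34.7% in hypoxia. NM_001206798 and NM_001206796 stayed below 0.5 FPKM in both conditions. The other 5 RefSeq transcripts of PKM were not analysed here. PKM is known for mutually exclusive exons that give the M1 and M2 enzymes, but the table does not say which exon each transcript carries, so these shares are not shares of M1 and M2.

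**Figure D2:**
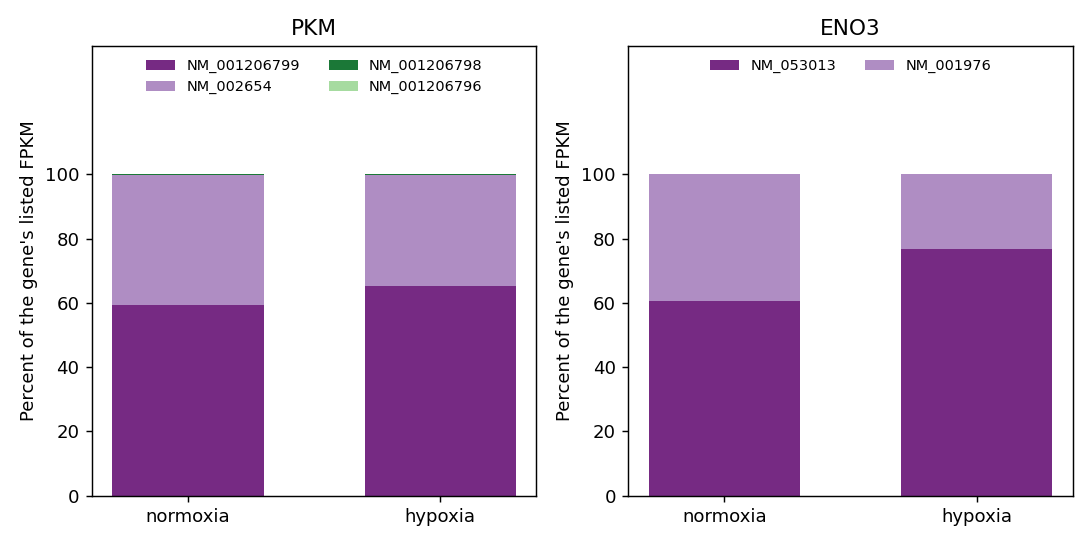
Share of each listed transcript in the summed FPKM of PKM (left) and ENO3 (right), in percent (y axis), in normoxia and hypoxia, 1 value per condition. In PKM, the share of NM_001206799 goes from 59.4% to 65.2%. The share of NM_002654 is lower in hypoxia, though its level was 204 FPKM in normoxia and 208 FPKM in hypoxia. In ENO3, NM_053013 goes from 60.5% to 76.9% at levels below 0.6 FPKM.

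LDHB encodes the heart-type subunit of lactate dehydrogenase, which pairs with the LDHA subunit in mixed tetramers. On chromosome 12 (21788275 to 21810789), its 2 listed transcripts summed to 1039 FPKM in normoxia and 768 FPKM in hypoxia. The log2 change was -0.44, and 19.8% of genes had a lower change. NM_002300 carried 99.9% of the listed signal in both conditions, with 1038 FPKM in normoxia and 767 FPKM in hypoxia. NM_001174097 had 1.45 and 0.806 FPKM. The other 4 RefSeq transcripts of LDHB were not analysed here. LDHB ranked 66 of 12106 genes by level, and the 864 genes with a mean of at least 100 FPKM had a median log2 change of -0.29. The listed LDHB signal was 2.07 times that of PKM in normoxia and 1.28 times in hypoxia. The change of LDHB depended on the scaling of the columns: it was -0.21 with the columns scaled to equal sums and -0.06 after quantile normalization.

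Over the listed transcripts, which leave out GAPDH, PGK1, ENO1 and LDHA, the FPKM columns summed to 536005 in normoxia and 458431 in hypoxia. Scaling to equal sums therefore rests on an incomplete set of transcripts. Scaling the columns in this way added 0.23 to the log2 change of strongly expressed genes and moved the median of all genes to 0.15. Quantile normalization moved that median to 0.015. With either scaling the median was above 0, so the 43.6% of genes higher in hypoxia applies only to the columns as deposited. Among all genes, 388 were at least 2-fold higher and 317 at least 2-fold lower with the columns as deposited. Of the genes past 2-fold in either direction, 55.0% were higher. This share was 82.0% with equal sums and 65.1% after median centring. The 5 higher and 1 lower members kept their directions under equal sums, quantile normalization and median centring. Equal sums and median centring raise the changes, so only the direction of LDHB could have switched there. The direction of ENO3 rests on values near the 0.5 FPKM limit, and its listed transcripts differed in direction.

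The earlier steps of glycolysis differed in the same direction. Of 12 genes from hexokinase to aldolase, 9 were measured. Of these, 8 were higher in hypoxia, where 43.6% of all genes were with the columns as deposited. At least 2-fold higher were 4 of the 9, against 3.21% of all genes. None was at least 2-fold lower, and the median log2 change of the 9 was 0.98. ALDOC, an aldolase that cleaves fructose-1,6-bisphosphate, had the largest, with 3.72, followed by HK2, a hexokinase that phosphorylates glucose, with 2.39. ALDOA, the most abundant gene of the list and also an aldolase, had 50.4 FPKM in normoxia and 89.7 FPKM in hypoxia, a log2 change of 0.83. GPI, the phosphoglucose isomerase, had 1.13 and PFKP, a phosphofructokinase, had 1.06. PFKM, another phosphofructokinase, was lower, with 21.3 FPKM in normoxia and 15.0 FPKM in hypoxia. A list of 11 paralogs and side enzymes of the members had 4 genes at or above 0.5 FPKM and none past 2-fold in either direction. Its most abundant gene, BPGM, which makes 2,3-bisphosphoglycerate, had 13.9 FPKM in normoxia and 10.9 FPKM in hypoxia. The testis dehydrogenase LDHC was listed at 0.118 and 0.109 FPKM.

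**Figure D3:**
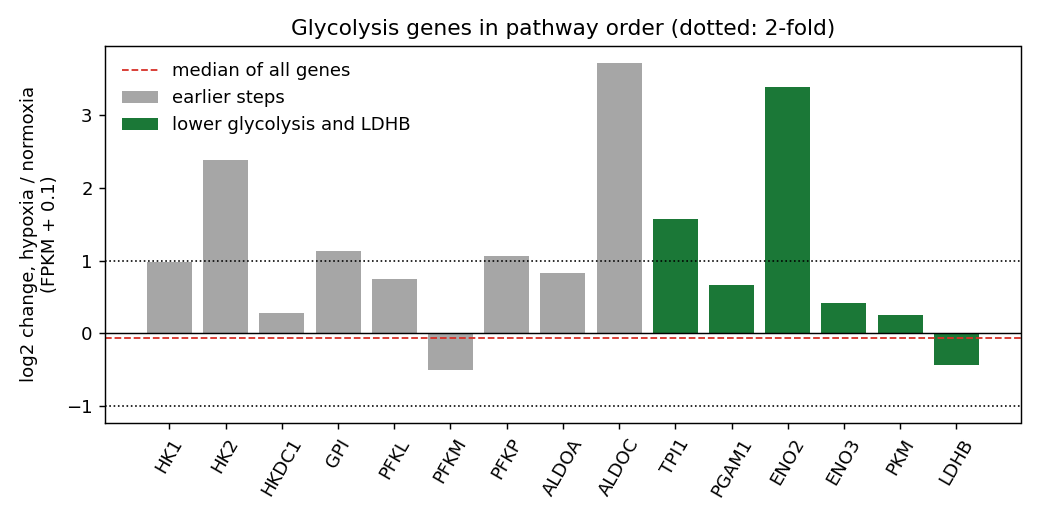
Log2 change between hypoxia and normoxia on the FPKM + 0.1 scale (y axis) of the measured glycolysis genes in pathway order (x axis), earlier steps in grey and the lower steps with LDHB in green, 1 value per gene without an error. ALDOC at 3.72 and ENO2 at 3.39 stand highest, PFKM and LDHB lie below 0, and the red dashed line marks the median of all genes at -0.07.

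For each member the gene nearest in its pair of levels was found by the Euclidean distance of log2(FPKM + 0.1) over the 2 conditions among 12106 genes. The nearest to ENO2 was PFKFB4, at 0.828 FPKM in normoxia and 10.5 FPKM in hypoxia, at a distance of 0.45. PBXIP1 was nearest to TPI1, TGFBI to PGAM1, ELMO3 to ENO3, TMBIM6 to PKM and RAN to LDHB, at distances from 0.02 to 0.18. Only 2 values enter each distance.

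The labelled cell type was checked with epithelial markers, not all of them particular to squamous cells. Of these, 6 of 7 were measured, 4 higher and 2 lower in hypoxia. KRT5, a keratin of basal epithelium, had 398 FPKM in normoxia and 442 FPKM in hypoxia, and TP63 had 42.8 and 44.6 FPKM. The lower ones were EPCAM, with 317 and 233 FPKM, and KRT6A, with 5.10 and 3.26 FPKM. Of 7 markers of leukocytes, endothelium and fibroblasts, CD68 was listed, at 2.36 FPKM in normoxia and 2.86 FPKM in hypoxia. The others were not analysed here, so the absence of these cell types was not tested.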

How the data were processed

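RNA-Seq of 4 normoxic and 4 hypoxic SQ20B samples was analysed from the deposited table. Per the labels and the methods of the study, poly(A)-selected stranded libraries were aligned to RefSeq hg19 with STAR (version 2.3.0.1), and Cufflinks (version 2.1.1) was run with standard parameters. The FPKM values are those of the authors, 1 per condition over its samples. The methods give a target and an average depth over the samples, and the depth of each library was not analysed here. The table also holds the fold change, test statistic, p-value and q-value of the authors' own comparison, which were not used. Samples were grouped by their source label, since the treatment text is repeated for normoxia.

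RefSeq identifiers were paired with symbols through the annotation of GRCh38.p14, which matched 24293 of 24812 transcripts (97.9%). FPKM was summed per gene, 0.1 was added for log2 changes, and a mean of at least 0.5 FPKM and a limit of 2-fold were used. Deposited locus starts count from 0, as a comparison with GENCODE starts showed (5320 of 12882 loci matched after adding 1, 637 without), and are given here counted from 1. No test was planned, because it needs values of single samples. Functions were tested on simulated data. The members and gene lists were chosen with earlier results of these data known. Genes named are the members, their nearest genes, up to 4 genes of each list, those past 2-fold first and then the most abundant, and all 4 exon choice factors. ALDOA, PFKM, PGAM4, LDHC, SPSB2 and the markers named were added after their values were seen. Alternatives covered the added constant, the FPKM and fold limits, the scaling and the transcripts summed. Python 3.11.15, numpy 2.4.6, pandas 2.3.3 and matplotlib 3.10.9 were used.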

Additional observations from a re-analysis of the deposited data

How the results depend on the processing

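No paired analysis was possible because the table gives 1 value per condition, which also precluded leaving out single samples. Over 6 alternatives for each measured member (no added constant, 1 FPKM added, equal column sums, quantile normalization, median centring, most abundant transcript alone), no log2 change switched sign. An added constant cannot switch a sign. Equal column sums and median centring raised the change of every member, so only LDHB could have switched there. For ENO2, TPI1 and PGAM1 the most abundant transcript is the only one listed. The changes ranged from 2.43 to 3.60 for ENO2, from 1.21 to 1.79 for TPI1, from 0.66 to 0.98 for PGAM1, from 0.18 to 0.66 for ENO3, from 0.25 to 0.52 for PKM and from -0.44 to -0.06 for LDHB. The value 2.43 for ENO2 came with 1 FPKM added. With a mean of at least 100 FPKM required, PGAM1, PKM and LDHB remained. Of these, 0 were at least 2-fold higher, where 1.62% of 864 genes were. Among all genes that limit gave 14 higher and 50 lower (1.62% and 5.79%). A 1.5-fold limit gave 1204 and 1361 (9.95% and 11.2%), and equal column sums gave 689 and 151 (5.68% and 1.25%). With the most abundant transcripts alone, ENO2 held 69.7% of the ENO2 and ENO3 signal in normoxia. The median of the upper glycolysis list was 1.21 with equal column sums and 1.19 after quantile normalization. Shares of LDHA and LDHB and of all enolases could not be formed, since LDHA and ENO1 were not analysed here.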

Other observations

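Genes for the fates of pyruvate and lactate formed a list of 12, of which 11 were measured. Of these, 4 were higher in hypoxia, 7 were lower, where 56.4% of all genes were, and the median log2 change was -0.13, against -0.07 for all genes. With equal column sums or quantile normalization, 7 were higher and 4 lower. PDK1, the kinase that inactivates pyruvate dehydrogenase, was the only one of the 11 at least 2-fold higher, against 3.21% of all genes, with 6.20 FPKM in normoxia and 20.8 FPKM in hypoxia (log2 change 1.73). SLC16A1, the lactate transporter MCT1, was the most abundant, with 206 FPKM in normoxia and 176 FPKM in hypoxia. MPC1, a subunit of the mitochondrial pyruvate carrier, had 76.4 and 47.9 FPKM. DLD, a component of the pyruvate dehydrogenase complex, had 65.6 and 59.8 FPKM.

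The 4 splicing factors known to act on the choice between the M1 and M2 exons of PKM had 34.6 FPKM in normoxia and 34.5 FPKM in hypoxia for PTBP1 and 315 and 304 FPKM for HNRNPA1. HNRNPA2B1 had 140 and 133 FPKM, and SRSF3 had 249 and 152 FPKM. The log2 changes were -0.05 for HNRNPA1, -0.08 for HNRNPA2B1 and -0.71 for SRSF3. None of the 4 was at least 2-fold lower, where 2.62% of all genes were. The paper describes a larger change of SRSF3 RNA than this, and it reports more SRSF3 protein in hypoxia. It compared expression for individual transcripts, where the values here are summed over a gene's listed transcripts. The reason for the difference in RNA was not tested, and protein was not analysed here. With equal column sums 3 of the 4 were above 0 and only SRSF3 was below, with -0.48.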
